A study of Mus musculus with 8 samples.

Results

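Vesicle coats and adaptor complexes are the protein shells that shape transport vesicles and pick their cargo. The genes described here code for the subunits of clathrin, the adaptor complexes AP-1 to AP-5, the GGA adaptors, COPI and COPII. They were chosen by symbol, as every AP subunit and a named set of COPI, COPII, clathrin and GGA genes. The rule uses no measured values, though it was drawn up with earlier results of these data known. Of 51 annotated mouse genes that fit this choice, 43 were among the 9307 genes with values, and all 43 passed the filter on low values. The other 8 genes (Ap1g2, Ap1m2, Ap1s3, Ap3b2, Ap3s1, Ap4b1, Ap4s1 and Ap5s1) were not analysed here. The 43 members comprised 3 clathrin, 5 AP-1, 5 AP-2, 5 AP-3, 2 AP-4, 3 AP-5, 3 GGA, 8 COPI and 9 COPII genes.

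The cells were wild-type mouse embryonic fibroblasts made to grow continuously in culture by the T antigen of the virus SV40. Overexpressing cells (OE) carried pBabe retroviral vectors with wild-type METTL1 and WDR4, and control cells carried empty vector (EV). Both lines came from selection in puromycin and G418, which were left out while the cells were expanded for lysis. Ribosome-protected fragments (RPF, or footprints, the pieces of mRNA left inside ribosomes after nuclease digestion) and input RNA were sequenced, giving 2 libraries in each of 4 groups: OE RPF, EV RPF, OE input and EV input. All cells were treated with cycloheximide to halt ribosomes before lysis. The labels speak of stable clones and give neither the number of clones nor whether the libraries of a group came from separate cultures, so the p-values reflect library-to-library spread that could be purely technical. The species of the METTL1 and WDR4 sequences in the vectors is also not given.

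Clathrin, built of heavy and light chains, coats vesicles at the plasma membrane, endosomes and the trans-Golgi network. It is joined to cargo by adaptors: AP-2 at the plasma membrane, AP-1 and the GGA proteins at the trans-Golgi network and endosomes. AP-3 sorts cargo to lysosomes and related organelles, and AP-4 and AP-5 work without clathrin. COPII carries newly made proteins out of the endoplasmic reticulum, a heavy task in fibroblasts, which secrete collagen, and COPI carries proteins back from the Golgi and between its cisternae. METTL1 with its partner WDR4 methylates a guanosine in a set of tRNAs, among them an arginine tRNA that reads the codon AGA.

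The libraries held between 526699 and 864147 reads for RPF and between 294367 and 371520 for input. The members had 3 to 1124 reads in a single OE RPF library, 4 to 964 in EV RPF, 2 to 304 in OE input and 2 to 325 in EV input. Their mean reads per library had a median of 73.75, against 24.875 for all genes. Values are given as normalised reads, in which 1 read is worth 0.549 to 0.898 in the RPF libraries and 1.27 to 1.61 in the input libraries. The libraries of a group differed beyond counting error most in OE RPF, with a chi-square per gene of 1.73, against 1.07 in EV RPF, 1.20 in OE input and 1.09 in EV input. Mettl1 had 40.1 and 22.4 footprints in OE cells against 25.7 and 25.6 in EV cells, and its mRNA had 33.7 and 16.0 in OE against 16.7 and 14.0 in EV. Wdr4 had 25.8 and 24.2 footprints in OE cells against 15.2 and 15.1 in EV cells, and its mRNA had 24.1 and 42.6 in OE against 16.7 and 26.7 in EV. Neither gene passed the test (limma, lowest adjusted p = 0.454). Fibroblast markers were present, with 9 of 12 measured and a summed footprint level of 9982 and 10594 in OE against 9390.4 and 9334 in EV. Of them Col1a1 passed the test in both mRNA and RPF. Of the epithelial, endothelial, leukocyte, neural, muscle and adipocyte markers, 6 of 28 were measured, with none past the test, and the endothelial and muscle markers were not among the genes with values. The neural pair Map2 and Tubb3 summed to 40.1 and 47.6 footprints in OE against 27.7 and 24.1 in EV, and the epithelial gene Krt18 had 12.6 and 18.9 in OE against 6.6 and 3.8 in EV. The leukocyte pair Csf1r and Cd14 summed to 9.3 and 10.8 footprints in OE against 15.8 and 18.8 in EV, and the adipocyte gene Fabp4 had 10.4 and 7.2 in OE against 10.5 and 15.1 in EV. These markers thus moved in both directions, at low levels, and their part in the results was not tested. In such bulk samples fewer cells of a type and less RNA per cell cannot be told apart.

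For most coat and adaptor genes no difference between OE and EV cells passed the test. There were 2 exceptions, with Benjamini-Hochberg adjusted p under 0.05 over all 9307 genes in limma: the mRNA of Ap3b1, the large beta subunit of AP-3, was lower in OE cells, and so were the footprints of Copg1, the main gamma subunit of COPI. At this threshold 1 of 43 members passed in mRNA, against 1.5% of all genes (0.494% lower), and 1 of 43 in RPF, against 0.956% of all genes (0.236% lower). These shares are near the background. For translational efficiency (TE, the RPF change minus the mRNA change) limma called 0 members and 0% of all genes, DESeq2 called 0 members and edgeR called 0 members. At an unadjusted p under 0.05, 3 members passed in mRNA, 6.98% against 13.4% of all genes. The same number passed in RPF, 6.98% against 10.2% of all genes, and all of these were lower in OE. For TE 4 members passed, 9.3% against 5.46% of all genes, of which 2 were higher and 2 lower.

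Small differences leaned to lower values in OE cells. The median change in RPF was -0.13 on the log2 scale (range -0.66 to 0.67), with 30 of 43 members below 0 (69.8%, against 50.2% of all genes). The median change in mRNA was -0.12 (-1.29 to 0.71), with 28 of 43 below 0 (65.1%, against 50.3% of all genes). For TE the median was 0.02 (-0.92 to 0.95), with 19 of 43 below 0 (44.2%, against 50.7%). Both OE libraries lay below both EV libraries in 17 members for RPF (39.5%, against 22.2% of all genes) and in 12 for mRNA (27.9%, against 19.4%). Both lay above them in 4 members for RPF (9.3%, against 21.9%) and in 4 for mRNA (9.3%, against 21.2%). In all genes each median was within 0.01 of 0. The members were chosen with earlier results of these data known and share their libraries, so these counts carry no test. Members were also read more deeply, with a median of 73.75 mean reads per library against 24.875 for all genes. The shares were not matched for depth. By complex, RPF was below 0 in 5 of 5 AP-2 genes (median -0.23), 4 of 5 AP-3 genes (-0.34), 4 of 5 AP-1 genes (-0.19), 2 of 2 AP-4 genes (-0.21), 3 of 3 clathrin genes (-0.02), 2 of 3 GGA genes (-0.02), 4 of 8 COPI genes (-0.06), 5 of 9 COPII genes (-0.01) and 1 of 3 AP-5 genes (0.08). For mRNA it was below 0 in 7 of 8 COPI genes (median -0.18), 2 of 2 AP-4 genes (-0.67), 4 of 5 AP-1 genes (-0.25), 3 of 5 AP-3 genes (-0.12), 2 of 3 AP-5 genes (-0.09), 2 of 3 clathrin genes (-0.03), 5 of 9 COPII genes (-0.03), 2 of 5 AP-2 genes (0.01) and 1 of 3 GGA genes (0.12).

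**Figure D1:**
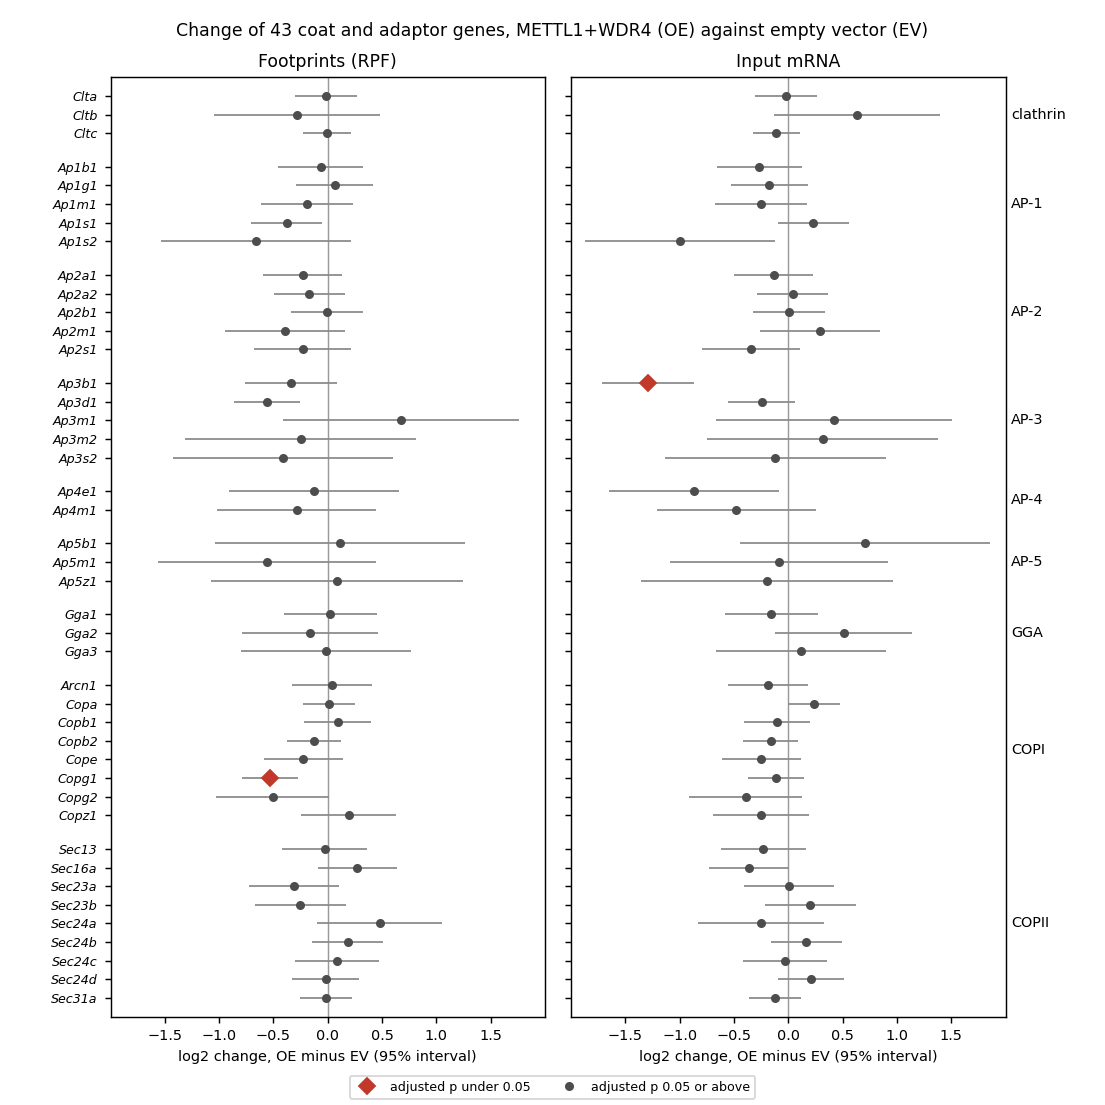
Log2 change (OE minus EV) of each of the 43 members in footprints (left panel) and input mRNA (right panel), with 95% intervals from the limma fit, grouped by complex. Only Copg1 in RPF (-0.53) and Ap3b1 in mRNA (-1.29), drawn as diamonds, passed the adjusted threshold of 0.05.

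The intervals show roughly what these libraries could resolve. Each gene had a single spread estimate over all 8 libraries, so its mRNA and RPF intervals are equally wide. Input libraries held fewer reads, so mRNA intervals may be too narrow and RPF intervals too wide. The 95% interval of a member's mRNA or RPF change spanned from 0.439 to 2.32 log2 units, and that of a TE change from 0.621 to 3.28. The narrow ones belong to highly expressed genes such as the clathrin heavy chain Cltc, the wide ones to AP-5 and the medium chains of AP-3. Where a member missed the threshold, its interval, not the p-value, says how large a change remains possible, within the limit of the shared spread.

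AP-3 is a complex of large beta and delta chains with a medium and a small chain, and its loss in mice gives pale coats and bleeding from defective pigment and platelet granules. Ap3b1, on chromosome 13 (mm10, 94358960 to 94566317, plus strand), codes for the broadly expressed beta chain. Its mRNA fell in OE cells. Input values were 27.3 and 29.3 in OE cells, against 60.3 and 82.8 in EV cells, from 17 and 22 reads in OE and 47 and 65 reads in EV. Both OE libraries lay well below both EV libraries. The means were 28.3 ± 1.41 in OE and 71.6 ± 15.9 in EV (SD, n = 2 each), a change of -1.29 on the log2 scale (95% interval -1.72 to -0.87, SE 0.21, limma adjusted p = 0.00053), or 0.408 of the EV level. Leaving out 1 input library at a time gave changes of -1.52 to -1.07 and adjusted p-values of 0.00219 to 0.049. With DESeq2 the change was -1.34 and the adjusted p 0.0666.

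Footprints of Ap3b1 differed less. They were 55.4 and 52.1 in OE cells, against 66.6 and 70.0 in EV cells, so the groups did not overlap. The change of -0.34 (-0.76 to 0.08) did not pass the test (adjusted p = 0.626). The TE difference was 0.95 (0.35 to 1.55), with an unadjusted p of 0.00303 and an adjusted p of 0.899 in limma. The authors' deposited table gives a TE change of 0.99 with an unadjusted p of 0.0292. Footprints minus input came to 0.90 in OE cells and -0.05 in EV cells on the log2 scale.

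The other large chain, delta, is coded by Ap3d1 on chromosome 10 (80706956 to 80742264, minus strand), the gene altered in the mocha mouse. Its footprints were 76.3 and 86.2 in OE cells, against 114 and 126 in EV cells. All OE values were below all EV values, a change of -0.56 (-0.87 to -0.25) with an unadjusted p of 0.000817, yet an adjusted p of 0.071 in limma. The adjusted p was 0.0412 with only the 4 RPF libraries in the fit and 0.0105 with edgeR, against 0.279 with DESeq2 and 0.101 to 0.68 with 1 RPF library left out. In input RNA Ap3d1 had 119 and 116 in OE cells against 146 and 132 in EV cells, a change of -0.25 (-0.55 to 0.06, adjusted p = 0.503). Both OE input libraries of Ap3d1 were again below both EV libraries, by a smaller margin. Its TE difference was -0.32 (-0.75 to 0.12, adjusted p = 0.916).

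The beta and delta chains differ in their use of AGA, the codon read by a tRNA of the kind METTL1 modifies. AGA makes up 1.72% of Ap3b1 codons and 0.417% of Ap3d1 codons, against a median of 1.06% over all genes. The window of 20 codons richest in AGA was taken from each coding sequence (GENCODE mouse release 21, mm10, coding strand) and is shown 5′ to 3′, with in-frame AGA codons in capitals. It covers coding bases 2401 to 2460 of Ap3b1 and 2500 to 2559 of Ap3d1.
Ap3b1: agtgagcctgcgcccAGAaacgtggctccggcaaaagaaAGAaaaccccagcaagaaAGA
Ap3d1: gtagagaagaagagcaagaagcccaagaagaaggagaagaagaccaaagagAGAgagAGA
The Ap3b1 window holds 3 AGA codons and that of Ap3d1 holds 2. Over the whole coding sequence the share in Ap3b1 is above the all-gene median and that in Ap3d1 below it.

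The remaining AP-3 genes had low values and wide intervals. Ap3m1, a medium chain that binds cargo signals, had 14.3 and 5.39 footprints in OE cells, against 3.96 and 6.78 in EV cells. Its relative Ap3m2 had 4.39 and 4.49 in OE, against 6.59 and 4.52 in EV. The small chain Ap3s2 had 17.0 and 14.4 in OE against 20.4 and 21.8 in EV, a change of -0.41 (-1.43 to 0.60). About 29.8% of the exon bases of Ap3m1 overlap Vcl, so its values are uncertain where strand was not used in counting.

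**Figure D2:**
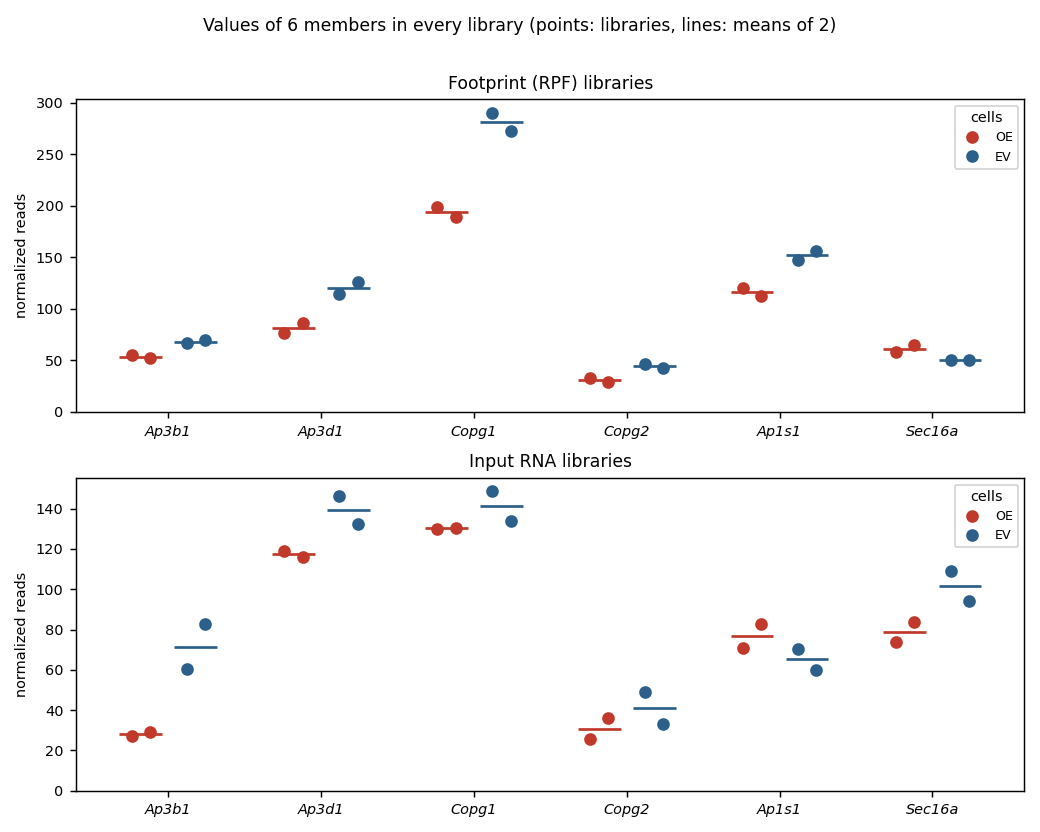
Normalised reads of Ap3b1, Ap3d1, Copg1, Copg2, Ap1s1 and Sec16a in every footprint library (top) and every input library (bottom), with OE left of EV in each pair. Points are libraries and lines are means of 2. Copg1 footprints sit at 199 and 189 in OE below 290.1 and 273 in EV, and Ap3b1 input sits at 27.3 and 29.3 in OE below 60.3 and 82.8 in EV.

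COPI is a coat of alpha, beta, beta′, gamma, delta, epsilon and zeta subunits, recruited as a whole to Golgi membranes by the GTPase Arf1. The gamma subunit exists as gamma1 (Copg1) and gamma2 (Copg2). Copg1 lies on chromosome 6 (87887814 to 87913595, plus strand). Its footprints fell in OE cells. They were 199 and 189 in OE cells, against 290.1 and 273 in EV cells, from 363 and 211 reads in OE and 440 and 362 reads in EV. The OE libraries were close to each other and clearly below both EV libraries. The means were 194 ± 6.88 in OE and 281 ± 12.4 in EV (SD, n = 2 each), a change of -0.53 (-0.79 to -0.27, SE 0.13, limma adjusted p = 0.0316), or 0.692 of the EV level. The change stayed between -0.58 and -0.49 under every alternative run. The call, however, did not hold without any one of the RPF libraries: the adjusted p was 0.108 without the first OE library, 0.161 without the second, 0.407 without the first EV library and 0.307 without the second. With DESeq2 it was 0.0981, and with edgeR 0.00223.

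The mRNA of Copg1 had 130.1 and 130.5 in OE cells, against 149 and 134 in EV cells, a change of -0.11 (-0.37 to 0.14, adjusted p = 0.758). The TE difference was -0.42 (-0.78 to -0.05), with an unadjusted p of 0.0269 and an adjusted p of 0.899. The authors' deposited table gives -0.41 with an unadjusted p of 0.12. Whether footprints changed beyond the mRNA was thus not established for this gene.

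Copg2, also on chromosome 6 (30747554 to 30896794, minus strand), had 32.9 and 28.7 footprints in OE cells, against 46.2 and 42.2 in EV cells. Its OE libraries again lay below its EV libraries, and the estimate of -0.51 (-1.03 to 0.02) was close to that of Copg1, but it did not pass (unadjusted p = 0.0565, adjusted p = 0.516). Input values of Copg2 overlapped, with 25.7 and 35.9 in OE against 48.8 and 33.1 in EV. About 17.8% of its exon bases overlap Mest. Per kilobase of coding sequence, Copg1 supplied 85.8% and 86.8% of gamma-COP footprints in OE cells, against 86.2% and 86.6% in EV cells, so the ratio between the paralogues was alike in all 4 RPF libraries while the level of both was lower in OE.

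The gamma proteins align over 874 columns with 706 identical residues (80.8%), yet their codons differ. Of 31 arginines that both share, 3 are coded by AGA in Copg1 and 6 in Copg2, with AGA in both at 1, and the same codon of any kind at 5. AGA makes up 0.458% of Copg1 codons and 1.38% of Copg2 codons. The matching window of 20 codons richest in AGA in Copg2 (coding bases 70 to 129 in each) has 18 identical residues. In-frame AGA codons are in capitals.
Copg1: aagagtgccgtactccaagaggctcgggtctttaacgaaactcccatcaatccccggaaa
Copg2: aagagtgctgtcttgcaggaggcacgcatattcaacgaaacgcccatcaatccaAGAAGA
The window holds 0 AGA codons in Copg1 and 2 in Copg2, a contrast that its choice by AGA in Copg2 favours. The first AGA lies at a shared arginine, coded cgg in Copg1. The second lies where Copg1 has a lysine (aaa), so there the residue differs. The RPF estimates of the paralogues were -0.53 for Copg1 (-0.79 to -0.27) and -0.51 for Copg2 (-1.03 to 0.02, not past the test). Whether AGA use bears on these changes was not tested.

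No other COPI subunit passed the test in footprints. The 6 besides the gamma pair had RPF changes of -0.22 to 0.19, with interval bounds from -0.59 to 0.63. Copa, the alpha subunit that binds retrieval signals, had 273 and 243 footprints in OE cells, against 258 and 254 in EV cells, a change of 0.01 (-0.23 to 0.25). Its mRNA was 206 and 204 in OE against 176 and 172 in EV, an estimate of 0.23 (-0.01 to 0.47) that did not pass (adjusted p = 0.394). Copb2, the beta′ subunit, had 224 and 209 footprints in OE and 225 and 248 in EV. Its partner Copb1, the beta subunit, had 149 and 138 in OE and 139.8 and 130.2 in EV. Values of Copb1 overlapped between genotypes, and those of Copb2 were separated by a narrow margin without passing the test (adjusted p = 0.806). For Cope, the epsilon subunit, footprints were 92.2 and 108 in OE and 119 and 114 in EV (-0.22, -0.59 to 0.14). Copz1, the small zeta subunit that pairs with gamma, had 85.6 and 77.2 in OE and 69.9 and 72.3 in EV (0.19, -0.25 to 0.63). The interval of Copa leaves out a change as large as that of Copg1, whereas the intervals of Cope and Copg1 overlap. The difference between subunits was not tested.

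Clathrin heavy chain Cltc, which forms the legs of the triskelion, was the most heavily read member. Its footprints were 617 and 589 in OE cells, against 636 and 576 in EV cells, a change of -0.01 with a 95% interval of -0.23 to 0.21. The light chain Clta had 201 and 195 in OE and 184 and 218 in EV (-0.02, -0.30 to 0.27). Both chains overlapped between genotypes. The second light chain, Cltb, was much less read, with 15.9 and 16.2 in OE and 17.8 and 21.8 in EV. Its mRNA was 20.9 and 14.6 in OE and 15.4 and 7.64 in EV. Its TE estimate was the lowest of all members (-0.92, -2.0 to 0.16), with an unadjusted p of 0.0932 and an adjusted p of 0.916. Clta supplied 92.1% and 91.8% of light-chain footprints per kilobase in OE cells and 90.5% and 90.2% in EV cells.

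AP-1 shapes clathrin vesicles at the trans-Golgi network. Its small chain Ap1s1 (chromosome 5, 137034993 to 137046135, minus strand) had 121 and 112 footprints in OE cells, against 147 and 157 in EV cells. Input values were 70.7 and 82.5 in OE and 70.6 and 59.9 in EV. The mRNA estimate of 0.23 (-0.10 to 0.56) did not pass (limma adjusted p = 0.575). The RPF estimate was -0.38 (-0.71 to -0.05, unadjusted p = 0.025, adjusted p = 0.365) and the TE estimate -0.61 (-1.07 to -0.14, unadjusted p = 0.0121, adjusted p = 0.899). The authors' deposited table gives a TE change of -0.62 with an unadjusted p of 0.0733. Its paralogue Ap1s2 had low values throughout. Its mRNA was 4.82 and 7.99 in OE and 12.8 and 14.0 in EV, an estimate of -0.99 (-1.87 to -0.12, unadjusted p = 0.0273, adjusted p = 0.293). The beta chain Ap1b1, the gamma chain Ap1g1 and the medium chain Ap1m1 had RPF estimates of -0.07, 0.07 and -0.19. Of AP-1 genes, then, 0 of 5 passed in any comparison.

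AP-2 selects cargo for uptake from the plasma membrane. All of its 5 genes had RPF estimates below 0, with 95% intervals that included 0. The estimates were -0.23 for Ap2a1 (-0.60 to 0.13), -0.17 for Ap2a2 (-0.50 to 0.15) and -0.01 for Ap2b1 (-0.34 to 0.32). For Ap2s1 the estimate was -0.23 (-0.68 to 0.22) and for Ap2m1 -0.39 (-0.94 to 0.16). The alpha chain Ap2a2 had 102 and 115 footprints in OE cells, against 125 and 118 in EV cells. The beta chain Ap2b1 had 107 and 131 in OE and 119.99 and 118 in EV. None passed the test, the lowest adjusted p for RPF being 0.675 (Ap2m1).

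Ap2m1, the medium chain that reads tyrosine signals in cargo tails, stood apart from the other members in both genotypes. Its footprints were 10.4 and 12.6 in OE cells and 16.5 and 14.3 in EV cells, whereas its input was 80.3 and 78.5 in OE and 51.3 and 81.5 in EV. On the log2 scale footprints minus input came to -2.69 in OE and -2.01 in EV, at percentile 2.33 of all genes, while the lowest of the other 42 members was -1.01 in OE and -1.07 in EV. The medians over members were 0.33 in OE and 0.28 in EV, against 0.02 for all genes in each. A footprint is about as long as the 28-base stretches counted next. Only 2.3% of the 28-base stretches in the coding sequence of Ap2m1 occur in no other annotated gene, against 92.4% of those in its untranslated parts. The processed pseudogene Gm13509 (chromosome 2, 49308155 to 49309462, plus strand) holds 92.5% of them, and it is not among the genes with values. The first 84 coding bases of Ap2m1 (chromosome 16, plus strand) and the matching stretch of Gm13509 are shown, with 0 mismatches between them.
Ap2m1: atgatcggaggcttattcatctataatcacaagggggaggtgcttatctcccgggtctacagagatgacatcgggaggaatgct
Gm13509: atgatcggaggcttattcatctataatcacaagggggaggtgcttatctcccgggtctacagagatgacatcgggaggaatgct
How reads with several matches were treated is not given in the sources used here, so the footprint level of Ap2m1 is uncertain. The part of the shared sequence in this low level was not tested.

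Other members share less of their coding sequence. In Ap3m1 15.7% of coding stretches are unique, and 84.3% occur in its pseudogene Ap3m1-ps on chromosome 10 (82585426 to 82586683, plus strand). Footprints minus input in Ap3m1 were 0.53 in OE and 0.28 in EV, from few reads, and so were not low. In Arcn1, the delta subunit of COPI, 52.8% are unique, and Gm8752 on chromosome 17 (35445856 to 35448926, plus strand) holds 47.2%. The first 84 coding bases of Arcn1 (chromosome 9, minus strand) and the matching stretch of Gm8752 differ at 2 bases, in capitals.
Arcn1: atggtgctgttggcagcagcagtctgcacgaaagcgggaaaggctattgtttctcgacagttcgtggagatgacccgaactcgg
Gm8752: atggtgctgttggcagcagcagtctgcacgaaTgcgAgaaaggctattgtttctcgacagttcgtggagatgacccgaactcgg
Arcn1 footprints were 73.0 and 71.8 in OE cells and 72.5 and 68.5 in EV cells, and footprints minus input came to 0.03 in OE and -0.19 in EV. The remaining 40 members had at least 85.6% unique coding stretches, Ap3b1 and Copg1 among them.

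**Figure D3:**
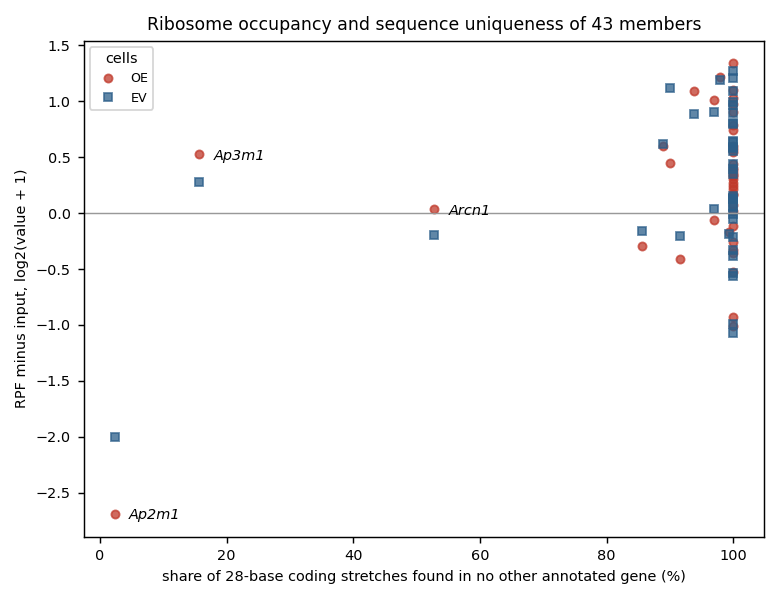
Footprints minus input on the log2(value + 1) scale (vertical axis) against the share of 28-base coding stretches found in no other annotated gene (horizontal axis, %), with 1 point per member and genotype (OE circles, EV squares). Ap2m1 lies alone at 2.3% with -2.69 in OE and -2.01 in EV, while Ap3m1 at 15.7% and Arcn1 at 52.8% lie among the other members.

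COPII is assembled by the GTPase Sar1 from an inner layer of Sec23 and Sec24 and an outer cage of Sec13 and Sec31, at exit sites organised by Sec16. No COPII gene passed the test. The cage protein Sec31a had 236 and 241 footprints in OE cells, against 242 and 239 in EV cells, a change of -0.01 (-0.25 to 0.23). Its partner Sec13 had 128 and 119 in OE and 121 and 131 in EV. The cage genes therefore overlapped between genotypes. Sec16a, the exit-site scaffold (chromosome 2, 26409431 to 26445216, minus strand), had 58.2 and 64.7 footprints in OE cells, against 50.8 and 50.4 in EV cells. The RPF estimate of 0.27 (-0.09 to 0.64) did not pass (limma adjusted p = 0.662). Input values of Sec16a were 73.9 and 83.9 in OE and 109 and 94.2 in EV. The mRNA estimate of -0.36 (-0.73 to 0.004) did not pass either (limma adjusted p = 0.381). The TE estimate was 0.63 (0.12 to 1.15), with an unadjusted p of 0.0181 and an adjusted p of 0.899. In the authors' deposited table it is 0.63 with an unadjusted p of 0.0947.

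The inner layer was measured for both Sec23 and all 4 Sec24 paralogues, which bind different cargo signals. Sec23a had 71.9 and 62.0 footprints in OE cells, against 80.4 and 85.8 in EV cells (-0.31, -0.73 to 0.10). Sec23b had 69.7 and 70.0 in OE, against 85.05 and 82.1 in EV (-0.25, -0.67 to 0.16). Both Sec23 genes were lower in each OE library than in each EV library, without passing the test (lowest adjusted p 0.652). Sec24a ran the other way with 32.9 and 29.6 in OE, against 25.1 and 19.6 in EV (0.48, -0.10 to 1.06, adjusted p = 0.608). Sec24b had 105 and 92.5 in OE and 83.7 and 89.6 in EV (0.18, -0.14 to 0.51). For Sec24c and Sec24d the RPF estimates were 0.09 and -0.02. Of Sec24 footprints per kilobase, Sec24d supplied 43.5% and 48.6% in OE cells and 51.3% and 48.4% in EV cells. Sec24a supplied 10.3% and 9.10% in OE and 8.25% and 6.54% in EV. Sec23a supplied 50.8% and 47.0% of Sec23 in OE and 48.7% and 51.2% in EV, so the pair was near parity in every library.

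AP-4 and AP-5 act apart from clathrin, and the GGA adaptors are single proteins that bind cargo receptors at the trans-Golgi network. Ap4e1, the epsilon chain of AP-4, had an mRNA level of 14.5 and 10.7 in OE cells, against 20.5 and 26.7 in EV cells, an estimate of -0.87 (-1.65 to -0.08, unadjusted p = 0.0314, adjusted p = 0.314). Its footprints were 10.4 and 8.98 in OE and 12.5 and 9.03 in EV. Ap4m1 had 25.2 and 12.6 footprints in OE and 25.7 and 18.8 in EV, and 28.1% of its exon bases overlap Mcm7 and Taf6. In AP-5, Ap5z1 had 6.59 and 16.2 in OE and 7.91 and 12.05 in EV, and Ap5b1 and Ap5m1 had under 10 in every RPF library. The RPF intervals of the AP-5 genes ran from -1.04 to 1.27 (Ap5b1), -1.56 to 0.45 (Ap5m1) and -1.08 to 1.24 (Ap5z1). Of the GGA genes, Gga1 was read most, with 57.1 and 50.3 footprints in OE and 52.1 and 53.5 in EV (0.02, -0.41 to 0.45). Gga2 had a TE estimate of -0.67 (-1.56 to 0.22, adjusted p = 0.916), and Gga3 had 11.5 and 10.8 footprints in OE and 10.5 and 12.05 in EV.

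Levels between subunits can be set side by side only per length. Per kilobase of coding sequence the members' footprints had a median of 27.99 normalised reads, against 14.1 for all genes, and ranged from 1.73 (Ap5b1) to 281 (Ap1s1). The clathrin light chain Clta stood at 265 in OE and 269 in EV, above the heavy chain Cltc at 119.6 in OE and 120.2 in EV. In COPI, Copz1 had 152 in OE and 133 in EV and Cope 108 in OE and 126 in EV. Copg1 had 74.0 in OE and 107 in EV, which placed it near Copa (69.7 in OE, 69.2 in EV) and Copb2 (79.7 in OE, 87.0 in EV) in OE cells and above both in EV cells. The small chains Ap1s1 (244 in OE, 318 in EV), Ap2s1 (140.5 in OE, 163 in EV) and Copz1 were above the large chains of their complexes. The small chain Ap1s2 (17.7 in OE, 29.4 in EV) was below the large chain Ap1g1 (34.8 in OE, 33.1 in EV). In AP-3, Ap3b1 had 16.2 in OE and 20.6 in EV and Ap3d1 22.6 in OE and 33.4 in EV. These lengths are those of the longest annotated coding sequence.

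**Figure D4:**
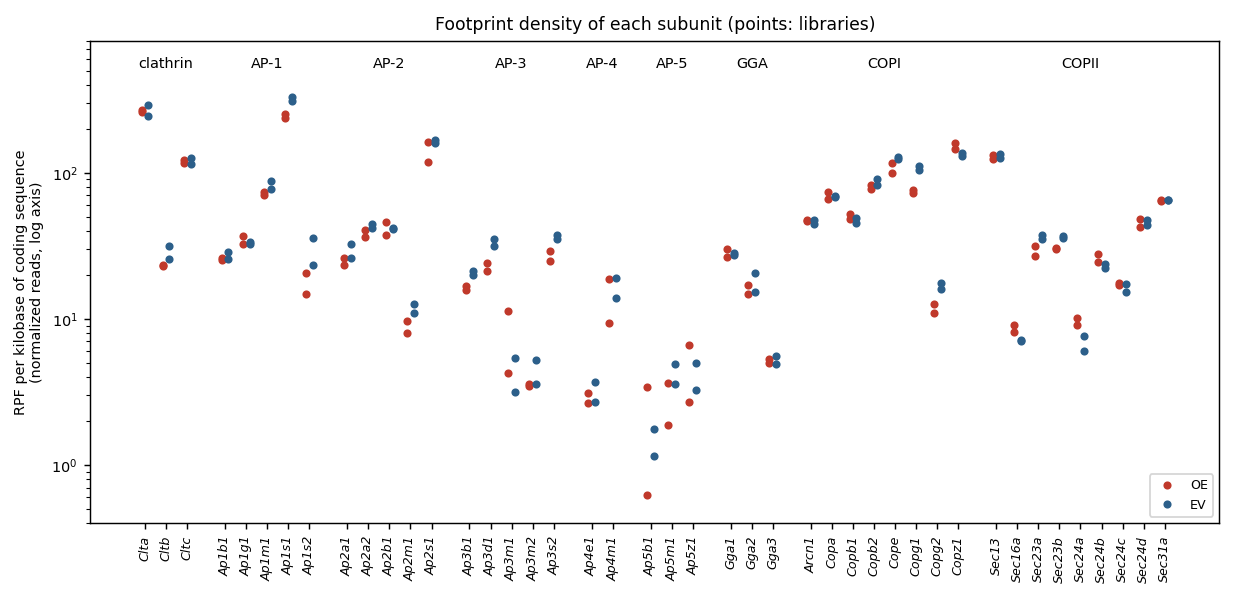
Footprints per kilobase of coding sequence (normalised reads, log axis) of each member in the 4 RPF libraries, by complex, with OE left of EV. The small chain Ap1s1 (244 in OE, 318 in EV) lies above the large chains of AP-1, whereas Ap1s2 (17.7 in OE, 29.4 in EV) lies below Ap1g1. Ap5b1 (mean of 1.73 over the 4 libraries) lies lowest.

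The median share of AGA among codons was lower in the coat and adaptor genes than in all genes, but the spreads overlapped. The lower and upper quartiles were 0.32% and 1.37% in members, against 0.55% and 1.71% over all genes. The members' median share of AGA codons was 0.73%, from 0 in 5 genes to 2.09% in Sec23a, against a median of 1.06% over all genes, and 26 of 43 members were below that median. The share of codons ending in G or C was similar, with a median of 58.9% in members and 59.7% in all genes. Across the 43 members the Spearman correlation of AGA share with the change was -0.07 for RPF, -0.11 for mRNA and 0.14 for TE. Over all genes it was 0.03 for RPF, -0.03 for mRNA and 0.04 for TE. For the share of G or C endings it was -0.21 for RPF, 0.10 for mRNA and -0.34 for TE across members, against -0.04, 0.04 and -0.07 over all genes. AGA share ran opposite to G or C endings (rho = -0.69 across members), so these are not separate features. The points share their libraries, and the values are descriptions only.

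Genes that work with the coats were counted from lists chosen for their function. The Arf and Sar1 GTPases with their regulators (24 of 24 measured), the partners of COPII and COPI at the exit from the endoplasmic reticulum (49 of 53) and the cargo receptors (17 of 18) each had 0 calls in mRNA, RPF and TE by limma. At an unadjusted p under 0.05 these lists had 4, 3 and 3 genes for mRNA, 4, 4 and 2 for RPF and 2, 2 and 1 for TE, while 13.4%, 10.2% and 5.46% of all genes did so. DESeq2 also gave 0 calls in each, and edgeR gave 1 RPF call in each (Arf6, Mcfd2 and Tfrc), where it called 301 of all 9307 genes. Endocytic clathrin accessory factors had 1 limma call among 28 of 38 measured, in mRNA, against 1.5% of all genes. At an unadjusted p under 0.05 this list had 1 gene for mRNA, 2 for RPF and 3 for TE, and edgeR called Eps15l1 in RPF. Picalm, which helps to gather AP-2 and clathrin at the membrane, had mRNA values of 122 and 152 in OE cells, against 87.3 and 85.3 in EV cells. Its mRNA rose by 0.65 (0.31 to 0.99, SE 0.16, limma adjusted p = 0.0381). The call was lost with DESeq2 (adjusted p = 0.577), with edgeR (0.0612) and without 3 of the 4 input libraries, while footprints were 103 and 88.0 in OE and 99.6 and 81.3 in EV (0.08, -0.26 to 0.41).

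The retromer and retrieval genes, which return receptors from endosomes, had 1 limma call among 19 of 19 measured, in mRNA, against 1.5% of all genes. At an unadjusted p under 0.05 this list had 4 of 19 genes for mRNA, 4 for RPF and 0 for TE. Over all genes the shares were 13.4%, 10.2% and 5.46%. Vps26a, a subunit of the retromer core, had mRNA values of 44.96 and 46.6 in OE cells, against 71.9 and 79.0 in EV cells. Its mRNA fell by 0.71 on the log2 scale (-1.07 to -0.35, SE 0.18, limma adjusted p = 0.0354). That call passed in 6 of 13 alternatives and in none that left out an input library (adjusted p 0.06 to 0.199). It was lost with DESeq2 (0.771) and edgeR (0.113). Footprints of Vps26a were 71.3 and 68.2 in OE and 102 and 95.6 in EV, an estimate of -0.49 (-0.85 to -0.13) that did not pass in limma (adjusted p = 0.237) but did with edgeR. In this list 15 of 19 genes had an mRNA estimate below 0 (median -0.22) and 14 an RPF estimate below 0 (median -0.16), against 50.3% and 50.2% of all genes.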

How the data were processed

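Per the submitters' processing notes, reads were aligned to mouse build mm10 with Bowtie. For the Bowtie version, counting program, strand use, multiply matching reads and annotation release, the details were not given in the sources used. The authors deposited 1 signal value per gene and library, reads divided by a size factor. Whole reads were recovered for 100% of values (tolerance 1e-06). For TE, the authors deposited a log2 change and an unadjusted p-value per gene, which a DESeq2 interaction test on the recovered reads matched within 2.18e-05 (log2) and 7.47e-06 (p). Lines without a gene (2) were left out. Of 9307 identifiers 9306 matched GENCODE mouse release 21, the source of symbols, 1-based coordinates and all printed sequences; 9283 genes had a coding sequence.

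limma 3.58.1 in R 4.3.3 was fitted, with a mean-variance trend and no covariate, to log2(value + 1) in 8 libraries. A minimum mean value of 1 removed 0 genes. The design had a branch for counts, but the table holds normalised values, so the branch for such values was used. Tests were two-sided with Benjamini-Hochberg adjustment over all genes. On this log2(value + 1) scale the changes of low genes are understated. The fit was tested on simulated data, with a spread alike in all libraries and with larger changes than that of Copg1 footprints. The libraries here differed in spread, so that test does not show how well such changes are called. Alternatives were other pseudocounts and filters, the contrast's 4 libraries alone, DESeq2 1.42.0 and edgeR 4.0.16 on the recovered reads, TMM scaling, a replicate block and leaving out each library.

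Members named were those past the adjusted or an unadjusted limma threshold of 0.05. Per complex, the one with the most footprints per kilobase and the one with the largest TE difference were also named. Copg2, Copa, Cope and further subunits were added to complete their complexes after their values were seen, as were Ap3m1 and Arcn1. Ap2m1 met the rule by its TE difference (-0.68, the largest in AP-2), and its low footprint level was taken up after it was seen. Members and lists were chosen with earlier results of these data known.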

Additional observations from a re-analysis of the deposited data

How the results depend on the processing

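Over the 168 values of named genes recomputed under the alternatives, all 168 kept their sign. These genes were named for low limma p-values in the same data. In mRNA and RPF the OE and EV libraries of those followed did not overlap. Leaving out 1 library could thus not reverse those signs, so the count says little about stability. Ap3b1 mRNA passed in 12 of 13 alternatives and Copg1 RPF in 8 of 13, failing without each RPF library and with DESeq2. With only the 4 libraries of a contrast, 47 genes passed in mRNA (against 140) and 162 in RPF (against 89), with 2 members in RPF. With DESeq2, 15 genes passed in mRNA and 25 in RPF, with 0 members in either. With edgeR, 57 genes passed in mRNA, 301 in RPF with 2 members, and 1 in TE. Leaving out 1 library gave 50 to 156 genes in mRNA, 16 to 70 in RPF, 0 members in RPF and 0 to 5 genes in TE. In mRNA 81 genes passed without the first OE input library, 66 without the first EV input library and 50 without the second. In RPF 47 passed without the first OE library, 26 without the first EV library and 16 without the second. The cause was not tested. Where a group was left with 1 library, it was assumed to vary like the other groups.

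Libraries with the same replicate number did not deviate together (correlations of -0.02 to 0.03 over 2 numbers). Deviations within EV RPF, OE input and EV input were close to counting error, which hides any shared part. Whether the numbers pair the libraries therefore stays unknown. With a replicate block 137 genes passed in mRNA, 88 in RPF and 0 in TE, with 1, 1 and 0 members. TMM scaling moved the median of all genes by less than 0.1. An alternative with coding lengths from RefSeq proteins was not run. Depth limits the AP-4, AP-5 and low AP-3 genes, whose intervals span over 1 log2 unit.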
